A study of Tetranychus urticae with 12 samples.

Results

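In the spider mite Tetranychus urticae, 69 of 19114 gene IDs had almost no reads in the London strain and were read in every library of the Trizina and BC2018-14 strains. They were chosen by their counts: at most 3 in each of 3 London libraries, and at least 0.5 CPM (the usual unit of a count scaled by its library's total) in each of 4 Trizina and 4 BC2018-14 libraries. The rule found 84 genes, of which 12 in a block of neighbouring IDs on scaffold 11 and 3 in a block on scaffold 6 were left out and are not described here. With BC2018-14 in the place of London the same rule, with no block left out, found 53 genes, beside the 84 for London. With Trizina in its place it found 15 genes. Those strains had 4 libraries to pass and London 3. With a library of the low strain left out, it found 55 to 60 genes for BC2018-14 and 15 to 19 for Trizina.

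Whole, untreated mites of 3 strains were compared by mRNA sequencing, with 4 libraries per strain in the labels. The labels call Trizina multi-resistant, while both London and BC2018-14 are called susceptible. All were reared on kidney bean away from insecticides, and the labels give no age, stage or sex of the mites and no number of mites per library. Counts for all genes were at hand for 3 London libraries (numbered 2, 3 and 4), 4 Trizina libraries (4 to 7) and 4 BC2018-14 libraries (numbered 1 to 4 here, in the order of their accessions). A library held between 26090006 and 39875401 counts, with most in London library 4. London library 5 had counts for the genes of a deposited comparison table and was not used to choose the members.

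Tetranychus urticae is a small arachnid that feeds on a very wide range of plants and is known for the speed with which its populations become resistant to acaricides. The published reference genome of the species was made from the London strain, and the letters and digits of a gene ID give the scaffold of that assembly and, for most IDs, the order along it. The members are thus IDs of an assembly from the strain in which they had almost no reads. Whether the London mites sequenced here carry these genes was not tested. A gene without reads in a strain may be absent from its genome, may be present and not transcribed, or may differ so much that reads do not align or are shared with a copy, and gene counts cannot tell these apart. In whole mites, fewer cells of a type and less RNA per cell cannot be told apart either. The files do not pair the IDs with names, and 0 of them matched the RefSeq table at hand, so no role, length, coordinate or sequence is given for any member.

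In London the members were nearly empty. Summed over the 69 genes, London libraries 2, 3 and 4 held 38, 36 and 47 counts. The Trizina libraries held 7295 to 8331 counts and the BC2018-14 libraries 7982 to 8251. Of the members, 28 had 0 counts in all 3 London libraries, 29 had 1 to 3 counts over the 3 libraries together, and 12 had more, up to 8. Of the 207 pairs of a member and a London library, 138 were at 0 counts. These values chose the genes, so they are given as a description with no test.

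The London library that the rule did not use looked much the same, as far as it could be read. The authors' deposited table of Trizina and London listed 61 of the 69 members, and library 5 had 0 counts for 43 of them, 1 to 3 counts for 13 and 4 to 6 counts for 5. Over these 61 genes library 5 held 41 counts, where libraries 2, 3 and 4 held 34, 29 and 39. None of the 5 members above 3 counts in library 5 was at 0 in all of the other London libraries. The 6 counts of tetur271g00030 were the most, and it had 2, 2 and 3 counts in the other London libraries. A gene stands in that table because it differed with library 5 included, so a member that was read in library 5 could be missing from it. The 8 members that it does not list had a mean of 0.599 to 1 CPM in Trizina, among the lowest of the set.

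**Figure D1:**
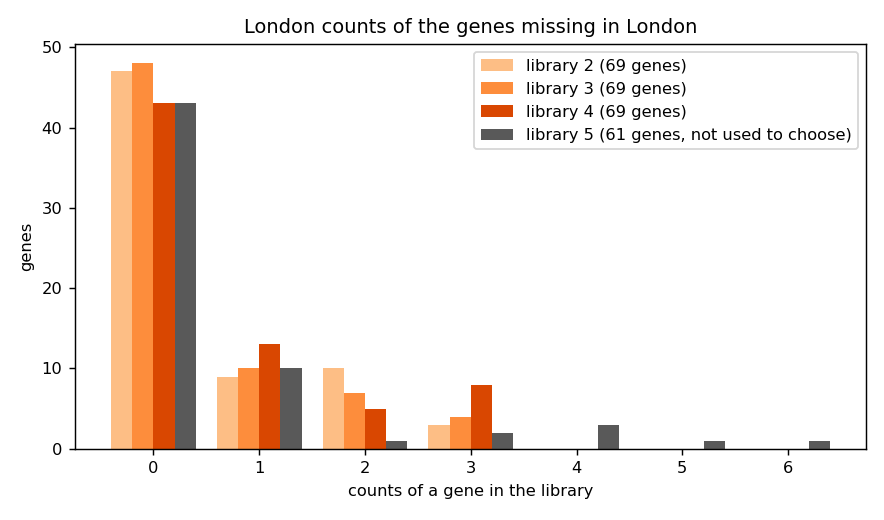
Number of genes missing in London (y axis) by their count in a London library (x axis); bars are libraries 2, 3 and 4, which chose the genes and hold all 69, and library 5, which did not and is known for 61 of them. In each library 43 to 48 genes had 0 counts, and library 5 alone reaches above 3, to 6 counts.

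Each London library was also left out of the choice in turn, to see how many genes it alone excluded. Chosen on libraries 3 and 4, 80 genes qualified, and 69 of them also had at most 3 counts in library 2. Chosen without library 3, 72 genes qualified and 69 passed in it. Chosen without library 4, 79 qualified and 69 passed. The 69 that passed are the members each time, because the rule uses all of these libraries. Only the genes that failed differ between the rounds, and the number that passed is no further support. The genes that failed had 4 to 18 counts in library 2, 4 to 6 in library 3 and 4 to 16 in library 4. The most read of these was tetur46g00170, with 18 counts in London library 2 and 1 and 0 in the other London libraries, beside 10.1 CPM in Trizina and 5.48 CPM in BC2018-14.

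In the strains that read them, most members were read at a low level. Levels from here on are CPM on library sizes scaled by TMM (trimmed mean of M values, which corrects for a few abundant genes), given as mean ± SD with n = 4 for Trizina and BC2018-14. Without gene lengths these levels compare strains for 1 gene and not 1 gene with another. The mean ran from 0.599 to 16.1 CPM in Trizina, with a median of 1.96, and from 0.760 to 26.2 CPM in BC2018-14, with a median of 2.59. In both strains 46 members were below 5 CPM, and 12 reached 10 CPM in at least 1 strain. Summed over the members, the Trizina libraries had 252.9 to 281.5 CPM and the BC2018-14 libraries 274.7 to 294.6 CPM.

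**Figure D2:**
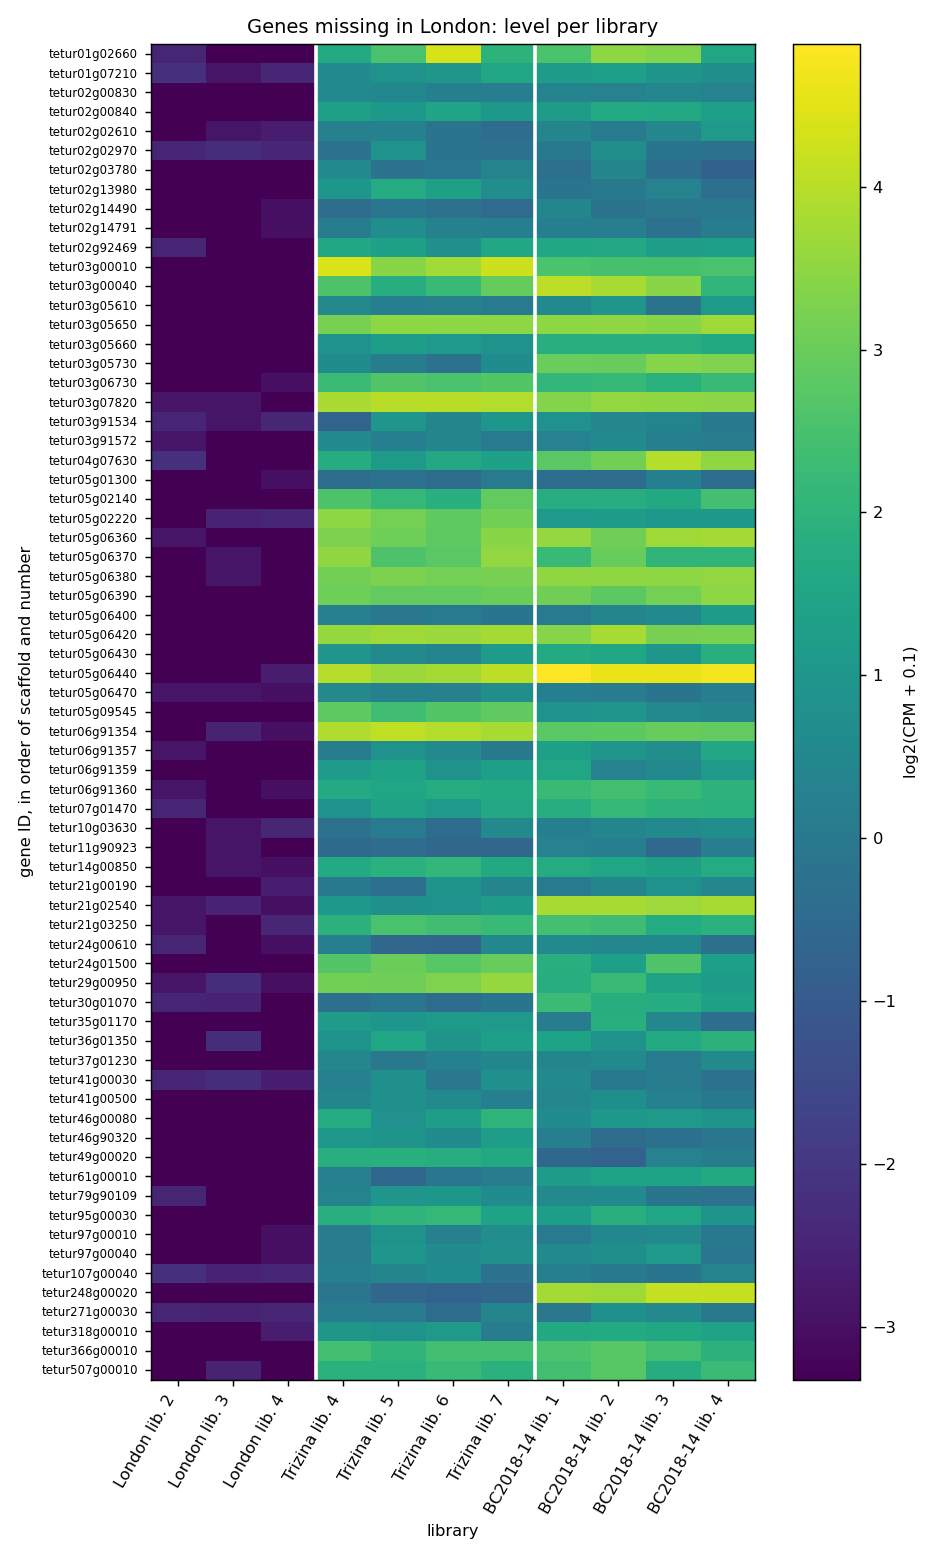
Level of each of the 69 genes (rows, in order of scaffold and number) in 11 libraries (columns), as log2 of CPM plus 0.1; white lines part the strains. The 3 London columns are dark throughout, since the rule chose them so, and among the brightest rows in the others are tetur05g06440, tetur03g07820, tetur06g91354 and tetur03g00010.

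For the 28 members at 0 counts in London the difference can only be given as a bound, against 3 counts in each London library or 0.104 CPM. Trizina was at least 5.90-fold to 155-fold higher over these members, with a median bound of 21.7-fold, and BC2018-14 at least 7.44-fold to 149-fold higher, with a median bound of 25.2-fold. For the 41 members with some London counts, the ratio to London ran from 11.1 to 805 in Trizina and from 10.98 to 1166 in BC2018-14. The rule sets how far apart the strains are, so no test is given. The highest ratio in BC2018-14 was that of tetur05g06440, with 0, 0 and 2 counts in London. Its level was 1166 times that of London in BC2018-14, with an exact 95% interval of 322 to 9632, and 644 times in Trizina, with an interval of 178 to 5323. The highest ratio in Trizina, 805, was that of tetur05g06380, with 1 count in London. These intervals and bounds, and the intervals given further on, cover counting error only. They do not allow for the choice of genes by low London counts or for naming the highest ratios.

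The members closest to the limits of the rule were as follows. The lowest CPM inside, on unscaled totals, was 0.511 in a library of tetur248g00020, then 0.519 for tetur03g91534 and 0.521 for tetur02g03780. Just outside were tetur56g00010 at 0.485, tetur18g92088 at 0.484 and tetur05g92637 at 0.475. On the London side tetur02g02970 and tetur107g00040 were in with 8 counts over the 3 libraries, and tetur01g07210 with 7. Just outside were tetur06g02950 and tetur29g01320, each with 4 counts in a single London library, and tetur06g04010 with 6 counts over the 3, at most 4 of them in 1 library.

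The members lay on 30 of the 417 scaffolds in the table. Scaffold 5 held 13 of them, scaffold 3 held 10, scaffold 2 held 9, scaffold 6 held 4 and scaffold 21 held 3, and 20 scaffolds held 1 each. Of the 59 members whose ID gives an order, 12 stood directly beside another member, or 20.3%, where 0.553% of all 17352 such IDs stood beside one. Within 3 places it was 18 members, or 30.5%, against 1.40% of all. Small scaffolds were also common. Scaffolds with fewer than 20 IDs held 13 members, or 18.8%, against 2.66% of the 12088 genes with at least 0.5 CPM in all 8 Trizina and BC2018-14 libraries. The limit of 20 IDs was chosen with the values in view. Among the 8 IDs of scaffold 97 there were 2 members, and both scaffolds 318 and 507, with 1 ID each in the table, held a member.

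The longest group lay on scaffold 5. Over the 18 neighbouring IDs from tetur05g06310 to tetur05g06480, a range chosen with the values in view, 9 were members. Together these 9 had 2, 3 and 3 counts in the London libraries, 1641 to 2182 counts in Trizina and 2095 to 2407 counts in BC2018-14. The 5 IDs from tetur05g06360 to tetur05g06400 were all members, as were the 3 from tetur05g06420 to tetur05g06440, and tetur05g06470 followed 3 places on. The ID between the first 2 groups, tetur05g06410, had 0 counts in London and missed the rule on the other side, with 0.825 ± 0.356 CPM in Trizina and 1.09 ± 0.394 CPM in BC2018-14 (SD, n = 4).

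In this group tetur05g06440 differed between the strains without overlap. It had 15.5, 12.4, 13.5 and 16.5 CPM in Trizina libraries 4 to 7 and 29.2, 24.8, 24.6 and 26.3 CPM in BC2018-14 libraries 1 to 4. The strains did not overlap, and BC2018-14 was 1.81-fold higher, with a log2 difference of Trizina minus BC2018-14 of -0.86 ± 0.160 (SE). Its adjusted p was 0.00144 (edgeR quasi-likelihood, Benjamini-Hochberg), but the difference was under the 2-fold that a call requires.

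Several other members of the group were nearer to equal in both strains. The gene tetur05g06420 had 11.9, 13.1, 12.4 and 13.4 CPM in Trizina and 10.3, 13.7, 8.96 and 9.24 CPM in BC2018-14, and 0 counts in all 4 London libraries. The libraries of the strains overlapped, and the log2 difference was 0.27 ± 0.152 (SE). For tetur05g06390, also at 0 counts in all 4 London libraries, the levels were 7.82 ± 0.441 CPM in Trizina and 8.78 ± 1.72 CPM in BC2018-14. The gene tetur05g06380 had 9.06 ± 0.325 and 11.3 ± 0.272 CPM and varied least of all members, with an SD of 3.59% of its mean in Trizina and 2.40% in BC2018-14. Every BC2018-14 library of tetur05g06380 lay above every Trizina library, and the 1.25-fold difference was not called. For tetur05g06360 the levels were 8.87 ± 1.53 and 11.7 ± 2.31 CPM.

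The group held 4 further members. The gene tetur05g06370 had 11.4, 5.93, 6.77 and 11.6 CPM in Trizina and 4.54, 7.78, 4.02 and 4.003 CPM in BC2018-14. Its libraries overlapped between the strains, and the adjusted p was 0.0463 (edgeR quasi-likelihood, Benjamini-Hochberg). The difference of 1.75-fold was under the 2-fold that a call requires. In Trizina and BC2018-14, tetur05g06400 had 0.926 ± 0.118 and 1.43 ± 0.524 CPM, and tetur05g06430 had 1.67 ± 0.453 and 2.80 ± 0.643 CPM. The gene tetur05g06470 had 1.27 ± 0.218 and 0.970 ± 0.129 CPM. It had 1 count in each of London libraries 2, 3 and 4 and 5 counts in library 5.

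The other IDs in and around the group did not all follow it. The genes tetur05g06310 and tetur05g06330 came close to the rule, with 0, 5 and 9 counts and 5, 1 and 4 counts in London. They had 11.2 ± 0.605 and 10.03 ± 1.05 CPM in Trizina and 16.4 ± 1.42 and 7.40 ± 1.13 CPM in BC2018-14. Between them, tetur05g06320 was read at 8.49 ± 1.72 CPM in BC2018-14, with 1 to 3 counts in each London library and 0 to 4 in each Trizina library. The gene tetur05g06450 went the other way, with 11.5 ± 3.66 CPM in London (n = 3), 0.680 ± 0.336 in Trizina and 1.28 ± 0.578 in BC2018-14. Inside the stretch, tetur05g06340 and tetur05g06350 were read in all 3 strains, at 12.2 ± 1.03 and 13.6 ± 5.49 CPM in London. On either side, tetur05g06300 and tetur05g06490 were read at 259 ± 22.2 and 136 ± 12.6 CPM in London and at 119 to 360 CPM in the other strains.

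**Figure D3:**
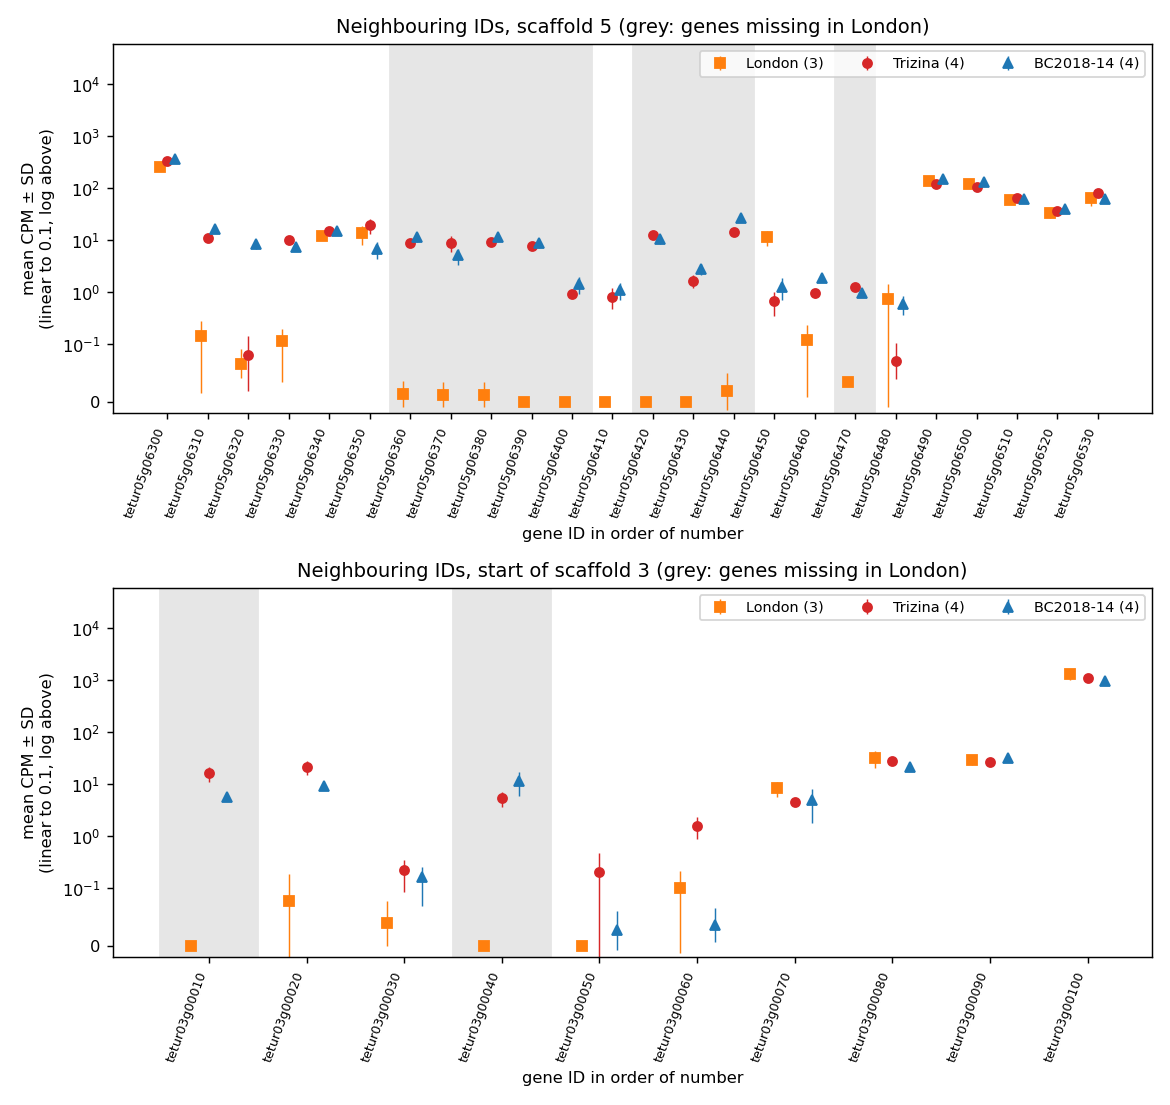
Mean CPM ± SD (y axis, linear up to 0.1 and log above) of neighbouring IDs (x axis, in order of number) on scaffold 5 and at the start of scaffold 3, for 3 London, 4 Trizina and 4 BC2018-14 libraries; grey bands mark genes missing in London. On scaffold 5 the 9 marked genes sit at or near 0 in London between IDs that all strains read, and tetur05g06450 among them is highest in London.

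Scaffold 3 held members in 2 places. The first ID of the scaffold in the table, tetur03g00010, had 21.5, 10.5, 13.1 and 19.1 CPM in Trizina and 5.83, 5.50, 5.51 and 5.68 CPM in BC2018-14, with 0 counts in all 4 London libraries. All Trizina libraries lay above all BC2018-14 libraries, and the Trizina libraries spread more widely among themselves. Trizina libraries 4 and 7 were the highest pair for this gene, as for many other genes given further on. The gene was called 2.85-fold higher in Trizina. The next ID, tetur03g00020, had the same shape at 21.0 ± 6.12 and 9.16 ± 0.445 CPM, and its 5 counts in London library 2 kept it out of the members. The member tetur03g00040 ran the other way, with 5.96, 3.33, 4.53 and 7.52 CPM in Trizina and 16.5, 14.0, 10.5 and 4.07 CPM in BC2018-14. The libraries overlapped through BC2018-14 library 4, and the 2.11-fold difference was not called, with an adjusted p of 0.0703 (edgeR quasi-likelihood, Benjamini-Hochberg). Without that library the log2 difference was -1.36 with an adjusted p of 0.00638, and DESeq2 with all libraries gave 0.0223.

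Further along scaffold 3, tetur03g05610, tetur03g05650, tetur03g05660 and tetur03g05730 were members with 0 counts in London libraries 2 to 4. The gene tetur03g05650 had 8.99, 11.02, 11.01 and 11.2 CPM in Trizina and 11.05, 11.2, 10.5 and 13.03 CPM in BC2018-14. These overlapped, and the log2 difference was -0.12 ± 0.127 (SE), the smallest among members with at least 5 CPM in both strains. Next to it, tetur03g05660 had 1.95 ± 0.299 and 3.41 ± 0.252 CPM, without overlap but under 2-fold. Between tetur03g05660 and tetur03g05730, the IDs tetur03g05670 to tetur03g05700 had at most 3 counts in any library of any strain, so that they give no comparison of the strains there. On scaffold 2 the adjacent tetur02g00830 and tetur02g00840 were nearly equal in both strains, at 1.20 ± 0.187 and 1.18 ± 0.0682 CPM and at 2.28 ± 0.3499 and 2.67 ± 0.449 CPM. The ID before them, tetur02g00810, was read in London at 5.70 ± 0.393 CPM (n = 3), beside 34.9 ± 2.70 in Trizina and 33.6 ± 1.93 in BC2018-14.

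Genes beside a member were a mixture. Of the 102 neighbouring places, 16 were taken by another member, and 37, or 36.3%, by a gene with at least 0.5 CPM in every London library, a class that held 71.2% of all IDs with an order. Genes with at most 3 counts in each London library that did not reach the minimum in all libraries of the other strains took 29 places, or 28.4%, against 15.8% of all. Among 47 members with a neighbour on both sides, 9 had a gene read in London at that level on both. The same share over all ordered IDs was not taken, so that count is a description only. Of the 84 different neighbours that were not members, 2 (tetur03g00020 and tetur05g06410) had a mean of at least 0.5 CPM in both other strains and of at most a 10th of both in London. This was 2.38%, against 0.366% of the 17194 ordered IDs that were neither neighbours nor among the genes the rule found. In the opposite direction, 2 neighbours (tetur01g02650 and tetur02g14500) had a mean of at least 0.5 CPM in London and at least 10-fold that in both other strains, also 2.38%, against 2.02%. Neighbours under 0.5 CPM were not counted either way, and these limits were chosen with the values in view.

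A further 10 members, or 14.5%, carried IDs of a separately numbered series with no order along the scaffold, which made up 9.22% of all IDs. Of these, tetur06g91354, tetur06g91357, tetur06g91359 and tetur06g91360 belonged to scaffold 6, where a block of other IDs was left out. Whether the 4 lie in that block cannot be read from the IDs. Of the 4, tetur06g91354 had 14.7, 16.8, 15.3 and 13.9 CPM in Trizina and 6.79, 6.93, 7.72 and 7.36 CPM in BC2018-14, and 0, 2, 1 and 1 counts in London libraries 2 to 5.

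Trizina and BC2018-14 were compared to see how far the strains that read the genes differ from each other. The rule used a minimum in both and not their difference, so this contrast was tested, in an edgeR fit over all 14394 genes that passed its filter on low counts. All 69 members passed the filter, as their minimum level requires. A call needed an adjusted p below 0.05 and a difference of at least 2-fold. Of the members, 15 were called, or 21.7%, beside 15.1% of all genes tested, 9.95% of the 12088 genes at or above the minimum in all 8 libraries, and 16.6% of the 5078 of these in the members' range of mean CPM. The members' share is near that of genes in the same range, which were not matched in level, and is not a result about the members. Higher in Trizina were 9 members, and the same call was made for 9.91% of all genes tested, 6.48% of those at the minimum and 9.96% of those in the members' range. Lower were 6 members, and in that direction the shares were 5.18%, 3.47% and 6.62%. The median log2 difference was -0.02 over the members and 0.01 over all genes tested. The strains' libraries did not overlap for 24 members, or 34.8%, beside 45.8% of all genes tested.

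**Figure D4:**
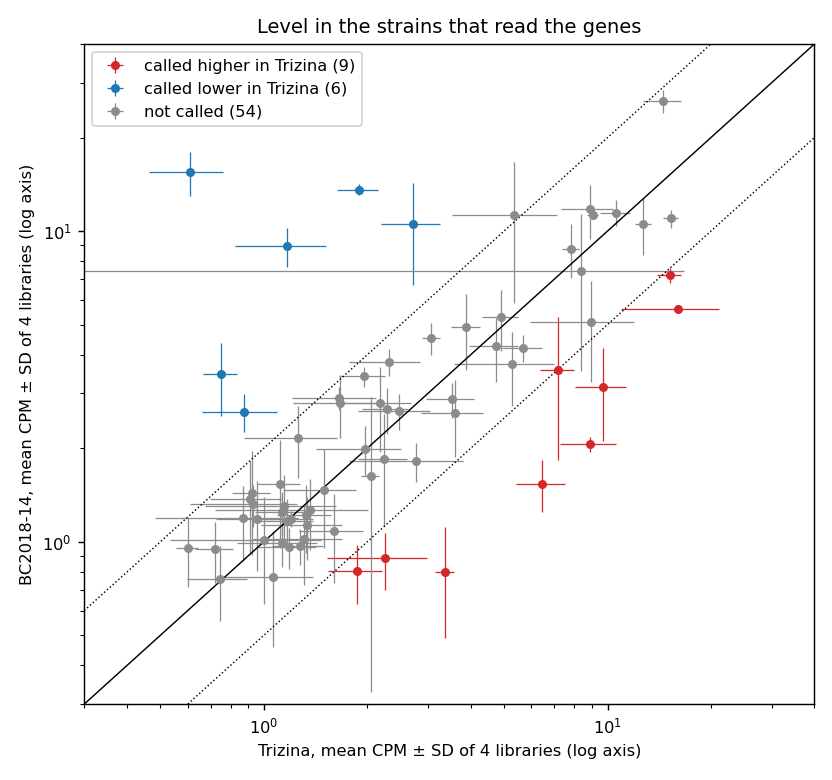
Mean CPM in Trizina (x axis) and BC2018-14 (y axis), each ± SD over 4 libraries on log axes, for the 69 genes; the solid line marks equal levels, the dotted lines 2-fold, and colours the 15 called genes. Most of the 54 genes not called lie between the dotted lines, and tetur248g00020 lies farthest from them, at 0.611 and 15.5 CPM.

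Among the 6 members lower in Trizina, tetur248g00020 differed most. It had 0.8292, 0.555, 0.507 and 0.553 CPM in Trizina and 13.6, 12.997, 17.6 and 17.7 CPM in BC2018-14, and 0 counts in London libraries 2 to 4. Its Trizina level was only just over the minimum of the rule, with 14 to 26 counts per library. BC2018-14 was 25.0-fold higher (log2 difference -4.64 ± 0.214 SE, adjusted p 2.33e-07, edgeR quasi-likelihood with Benjamini-Hochberg adjustment).

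The next was tetur03g05730, with 1.44, 1.01, 0.761 and 1.48 CPM in Trizina and 7.90, 7.78, 10.4 and 9.61 CPM in BC2018-14, 7.60-fold higher there (adjusted p 1.12e-05, edgeR). The gene tetur21g02540 had 1.98, 1.63, 1.74 and 2.21 CPM in Trizina and 13.9, 13.8, 12.8 and 13.9 CPM in BC2018-14, a 7.17-fold difference (adjusted p 8.06e-08, edgeR). Its libraries agreed closely within each strain, and London had 1, 2, 1 and 1 counts in libraries 2 to 5. The other 3 were tetur30g01070, at 0.749 ± 0.0864 and 3.45 ± 0.918 CPM, tetur04g07630, at 2.72 ± 0.526 and 10.5 ± 3.80 CPM, and tetur61g00010, at 0.876 ± 0.217 and 2.62 ± 0.367 CPM. Their differences were 4.59-fold, 3.85-fold and 2.97-fold, without overlap between the strains.

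Of the 9 members higher in Trizina, 3 differed about alike. The gene tetur05g02220 had 11.1, 8.80, 7.10 and 8.63 CPM in Trizina and 2.07, 2.21, 1.99 and 1.95 CPM in BC2018-14, 4.33-fold higher in Trizina (adjusted p 2e-05, edgeR quasi-likelihood with Benjamini-Hochberg adjustment). The gene tetur05g09545 had 7.14, 4.99, 6.38 and 7.30 CPM in Trizina and 1.75, 1.82, 1.35 and 1.23 CPM in BC2018-14, 4.19-fold higher. For tetur49g00020 the values were 3.41, 3.57, 3.37 and 3.06 CPM in Trizina and 0.572, 0.4999, 1.14 and 0.992 CPM in BC2018-14, 4.17-fold higher. In each of the 3 genes every Trizina library lay above every BC2018-14 library.

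The rest of the higher members differed by less. The gene tetur29g00950 had 9.67 ± 1.63 and 3.15 ± 1.04 CPM, a 3.07-fold difference. For tetur02g13980 the levels were 2.25 ± 0.729 and 0.884 ± 0.184 CPM, and for tetur46g90320 1.87 ± 0.335 and 0.803 ± 0.172 CPM. The difference of tetur06g91354, described above, was 2.104-fold, and with library size alone it fell just under the required size, at 0.99 on the log2 scale. The gene tetur24g01500 was at the limit, with 6.31, 8.04, 6.63 and 7.71 CPM in Trizina and 3.47, 2.39, 6.04 and 2.36 CPM in BC2018-14, 2.01-fold higher (adjusted p 0.0221, edgeR). BC2018-14 library 3 came close to the Trizina libraries. Its call was lost with library size alone and without each of Trizina libraries 5 and 7 and BC2018-14 libraries 1, 2 and 4, with log2 differences of 0.85 to 0.99.

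The authors' deposited table of Trizina and BC2018-14 listed 967 of the 19114 gene IDs. Among these were 11 members, and all 11 were called here. Their log2 fold changes in the authors' deposited table ran from -4.63 for tetur248g00020 to 2.12 for tetur05g02220. That table holds the same counts as those used here, so the shared calls are no separate support. The share of members listed was not compared with that of genes at their level, so it is not a result about the members. Of the 54 members not called, 43 differed by less than 1.5-fold and 1, tetur03g00040, by more than 2-fold. A difference that was not called is not shown to be absent, and the lowest count of a member in a Trizina or BC2018-14 library was 14.

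Libraries of 1 strain differed more for some members than for others. Trizina libraries 4 and 7 were the highest pair in 30.4% of members and in 37.5% of the 5078 genes in the members' range. In BC2018-14, libraries 1 and 2 were the highest pair in 31.9% and 27.7%. Each was the most frequent pair of its strain in both sets, so this pattern was not particular to the members. The SD as a share of the mean had a median of 18.8% in Trizina and 22.1% in BC2018-14, beside 14.8% and 15.2% for the 5078 genes in the same range of mean CPM. Those genes share only the lowest and highest level of the members and were not matched to them in level. Counting error is a larger share of a low level, so members cannot be called more variable from these medians. The widest spread in Trizina was that of tetur01g02660, with 3.16, 5.58, 20.8 and 3.87 CPM, where library 6 stood far above the others. In BC2018-14 the same gene had 5.83, 11.2, 10.1 and 2.74 CPM. The widest spread in BC2018-14 was that of tetur35g01170, with 1.00, 3.54, 1.28 and 0.684 CPM, an SD of 79.8% of the mean, where Trizina had 2.17, 1.87, 2.07 and 2.07 CPM. In that gene library 2 of BC2018-14 was above every Trizina library and the other 3 were below them all.

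The 6 members with 6 or more counts over London libraries 2 to 4 had ratios to London of 10.98 to 25.2 in the other strains, and those with fewer counts ranged more widely. The gene tetur02g02970 had 2, 3 and 3 counts in London and 1.000 ± 0.466 CPM in Trizina, 11.1 times the London level with an exact 95% interval of 5.46 to 26.4. The gene tetur107g00040 had 3, 2, 3 and 4 counts in London libraries 2 to 5 and was at 12.6 times the London level in Trizina (6.19 to 29.7) and at 10.98 times in BC2018-14 (5.39 to 26.1). For tetur01g07210 the London counts were 3, 1, 3 and 0 and the ratios 24.6 in Trizina and 25.2 in BC2018-14. The genes tetur271g00030, tetur41g00030 and tetur03g91534 had 6 or 7 counts over London libraries 2 to 4 and ratios of 12.2 to 19.9 in Trizina. With 5 London counts each, tetur05g02220 and tetur29g00950 had ratios of 159.7 and 171 in Trizina and 36.6 and 55.9 in BC2018-14. With 4 London counts each, tetur10g03630 had ratios of 20.5 and 29.4, and tetur21g02540 of 41.97 and 302, in Trizina and BC2018-14. The gene tetur03g07820, with 1, 1 and 0 counts in London, had 14.2, 15.8, 15.8 and 15.2 CPM in Trizina and 10.05, 11.7, 11.4 and 10.8 CPM in BC2018-14. At a few counts such ratios are uncertain by several fold, and members with London counts are low in London rather than shown to be unread.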

How the data were processed

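Raw read counts per gene were deposited by the authors for 19114 IDs, from paired-end libraries of a kit that keeps the strand, per the labels' protocols. HISAT2 2.1.0, SAMtools 1.10, featureCounts 1.6.0 and edgeR were used, per the submitters' processing notes. The build, annotation and strand setting are not given in the sources used here, so overlapping, antisense and near-identical genes are uncertain. Log2 fold changes and false discovery rates (adjusted p-values) in 2 comparison tables are the authors' own, per the file headers.

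The header of the count table names 12 libraries and each line holds 11 values. Columns were assigned because they equal the named columns of the comparison tables at 1458 of 1458 genes (Trizina, London 2 to 4) and 967 of 967 genes (Trizina, BC2018-14). London library 5 has counts only in the first of these tables, so 11 libraries entered the fit.

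The test was that of edgeR 4.0.16 under R 4.3.3 (filterByExpr, TMM, robust quasi-likelihood, strain as the only term), with Benjamini-Hochberg adjustment over 14394 genes. London libraries had TMM factors of 0.874 to 0.918, and all others 1 to 1.09. The SE was taken from the test statistic. The steps were also run on simulated counts with the same spread set for every gene. Spread differs between genes in these data, so that run does not measure error rates here. DESeq2 1.42.0 was an alternative. The chi-square per degree of freedom between libraries of the same strain was at least 6.75, so none was taken for a repeat deposit. The labels name no separate cultures, and a p-value here reflects only how these libraries vary, in part perhaps for technical reasons.

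The members and lists were chosen with earlier results of these data known. Named with values were the 12 members with the highest mean CPM, all called members (up to 10 in each direction), 4 members nearest to equal, members in runs of neighbouring IDs, those with the widest spread, those nearest the limits of the rule and up to 10 with most London counts. Other genes and members were named after their values were seen.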

Additional observations from a re-analysis of the deposited data

Results flagged for a closer look

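Each member was checked in Trizina and in BC2018-14 for a library whose gap to the nearest other library took up most of the range of the 4, by Dixon's critical value. Of 138 groups checked, 10 had such a library, where chance gives about 1 in 20. In Trizina, library 6 of tetur01g02660 was at 20.8 CPM and the others at 3.16 to 5.58. Library 5 of tetur02g02970 was at 1.70 CPM, with the others at 0.738 to 0.797. Library 4 of tetur03g05650 was low, at 8.99 CPM beside 11.01 to 11.2, and library 4 of tetur248g00020 was high, at 0.8292 beside 0.507 to 0.555. Library 5 of tetur366g00010 was at 4.02 CPM beside 5.13 to 5.27, and library 6 of tetur507g00010 at 4.46 beside 3.65 to 3.71. In BC2018-14, library 3 of tetur05g01300 was at 1.07 CPM beside 0.643 to 0.679, and library 4 of tetur05g02140 at 5.23 beside 3.06 to 3.36. Library 2 of tetur05g06370 was at 7.78 CPM beside 4.003 to 4.54, and library 3 of tetur21g02540 at 12.8 beside 13.8 to 13.9.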

How the results depend on the processing

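The number of members depends on the limits of the rule. It was 28 with 0 counts allowed in London and 122 with 10 counts, and 37 with 1 CPM and 9 with 5 CPM required in the other strains. It was 67 with CPM on TMM-scaled sizes and 69 to 80 with a library left out. The 15 members called between Trizina and BC2018-14 were 13 with library size alone, 16 with DESeq2 and 14 to 16 with a Trizina or BC2018-14 library left out. Of all genes tested, the main fit called 2172 of 14394, library size alone 2147 of 14394 and DESeq2 2447 of 19114. The counts over all genes with a library left out are not given here. A filter of 5 CPM in 4 libraries tested 21 members and called 9, of which 5 were higher in Trizina. It called 1028 of all genes, 720 higher and 308 lower. The number of all genes tested under this filter is not given here. The 9 of 21 thus has no share over all genes beside it and is not a result about the members. When no fold was required, only an adjusted p from edgeR, 11 members were higher and 11 lower in Trizina, and of all genes 5699 were called, 2869 higher and 2830 lower. Over all alternatives, 212 of 219 values of called members kept their call, and none changed direction past the threshold. The 7 others were tetur24g01500 in 6 cases and tetur06g91354 with library size alone. No paired analysis was possible because the BC2018-14 libraries carry letters and no numbers that Trizina shares, and London and Trizina share only number 4 among libraries with all genes.

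Depth limits these results in London, where 3 counts correspond to 0.104 CPM, and for members near 0.5 CPM, which have few counts in any strain. On unscaled totals, the 6 counts of tetur271g00030 in London library 5 stood for 0.150 to 0.205 CPM over the range of London totals. The total of library 5 is not known here. These values are not on the TMM scale of the 0.104 CPM.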
